A study of Mus musculus with 6 samples.

Results

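Epithelial-mesenchymal transition is the programme by which epithelial cells loosen their junctions and take on features of migratory connective tissue cells. The 10 genes described here are its classical transcription factors and markers: Snai1, Snai2, Twist1, Twist2, Zeb1, Zeb2, Prrx1, Vim, Cdh2 and Cdh3. They were chosen by name, and all 10 were found among 23381 gene symbols. RNA came from whole mammary tumours in Balb/c mice. The labels give the mice as 10 weeks old, and the tumours were seeded with 500000 cells of 4T1, a mouse mammary carcinoma line, placed in the inguinal fat pad. Of the 6 libraries, 3 came from tumours of mice given the vehicle DMSO and 3 from mice given Vismodegib, an inhibitor of the Hedgehog signal transducer Smoothened, at 2 mg per mouse. Treatment began once tumours were established and was given 3 times per week for 3 weeks in both groups. No genetic change is stated, the 4T1 line is the only tumour source, and the labels do not say that each library is a separate animal, so a p-value here reflects the variation between libraries, which may be technical.

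The SNAIL proteins Snai1 and Snai2 and the ZEB proteins Zeb1 and Zeb2 are zinc finger repressors that bind E-box sequences and silence epithelial genes, E-cadherin (Cdh1) among them. Twist1 and Twist2 are basic helix-loop-helix factors, and Prrx1 is a homeobox factor of embryonic mesenchyme. Vim encodes the intermediate filament protein vimentin, Cdh2 encodes N-cadherin and Cdh3 encodes P-cadherin, the cadherin of basal epithelial cells. Twist1 has been linked to metastasis in the 4T1 model, and Gli factors, which act downstream of Smoothened, have been described as inducers of Snai1. Fibroblasts, macrophages and endothelial cells also express several of these genes. In whole tumours, a lower share of a cell type and less RNA per cell cannot be told apart.

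Promoter sequence was taken from RefSeq (build GRCm38.p6) for 6 of the 10 genes: Snai1, Twist1, Twist2, Zeb2, Prrx1 and Vim. No entry was found for Snai2 and Cdh3. Zeb1 and Cdh2 were left out of the search, so whether they have an entry was not tested. The 250 bases before the transcription start are shown for Snai1, Twist1 and Twist2, 5′ to 3′ on the plus strand. These genes were taken because Snai1 and Twist1 were both highest in DMSO replicate 2 and Twist2 was not. Capitals mark the E-box, spelled CACCTG, in either orientation. They also mark the CCAAT box on either strand, so that its reverse complement appears in the Snai1 window. The remaining motif in capitals is TATAAA, again searched on both strands. No marked motif overlaps another.
Snai1, chr2:167537945-167538194: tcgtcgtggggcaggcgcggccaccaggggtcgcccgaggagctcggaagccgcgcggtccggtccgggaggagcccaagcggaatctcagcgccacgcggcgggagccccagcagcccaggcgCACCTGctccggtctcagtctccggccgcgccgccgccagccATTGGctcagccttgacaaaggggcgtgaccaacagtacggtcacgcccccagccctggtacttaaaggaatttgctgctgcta
Twist1, chr12:33957421-33957670: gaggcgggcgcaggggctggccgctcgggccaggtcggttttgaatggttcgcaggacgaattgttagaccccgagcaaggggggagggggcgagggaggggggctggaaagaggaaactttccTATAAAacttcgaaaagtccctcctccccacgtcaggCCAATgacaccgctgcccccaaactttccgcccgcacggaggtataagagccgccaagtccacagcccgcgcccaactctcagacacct
Twist2, chr1:91801211-91801460: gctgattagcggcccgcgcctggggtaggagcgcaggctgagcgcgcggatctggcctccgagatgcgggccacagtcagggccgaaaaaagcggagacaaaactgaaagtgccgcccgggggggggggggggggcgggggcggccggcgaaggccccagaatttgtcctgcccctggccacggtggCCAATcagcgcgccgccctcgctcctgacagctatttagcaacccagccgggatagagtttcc

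The E-box was found in the Snai1 promoter alone among these 6 genes, at 126 to 121 bases before the start, while 17.2% of 32851 mouse promoter windows of the same length hold it. Snai1 is known to bind its own promoter. A CCAAT box stood in Snai1, Twist1, Twist2 and Vim and in 1 of 4 Zeb2 windows, against 33.8% of all windows. TATAAA stood in Twist1 and Vim, against 12.4% of all windows. The Vim window lies within a 5′ UTR of the GENCODE M21 annotation, so its matches may not lie in a promoter. The CCAAT and TATAAA motifs were chosen after the sequences were seen. These matches describe letters in the window and do not show that a factor binds there.

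The values are RPKM, read numbers divided by gene length and by the total of each library, so levels can be set beside each other between genes. Vim (chromosome 2, 13573927 to 13582826, plus strand, mm10) was the highest of the 10, with a mean of 226.8 RPKM over the 6 libraries and 98.9% of all genes below it. Twist1 averaged 7.08 RPKM, Snai1 3.76 RPKM and Twist2 1.77 RPKM. Prrx1, Zeb2, Cdh3, Snai2, Zeb1 and Cdh2 followed with means of 0.672, 0.578, 0.462, 0.406, 0.200 and 0.0726 RPKM. The range of Vim lay above that of Twist1, and the range of Twist2 above that of Prrx1. The ranges of all other neighbours in this order overlapped over the 6 libraries. Within libraries, Twist1 exceeded Snai1 and Zeb1 exceeded Cdh2 in all 6, while the other overlapping neighbours did not keep 1 order in every library. Thus Twist1 and Snai1 were the most abundant transcription factors by mean level, and the ZEB factors, Prrx1 and Snai2 all stayed under 1 RPKM in every library.

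**Figure D1:**
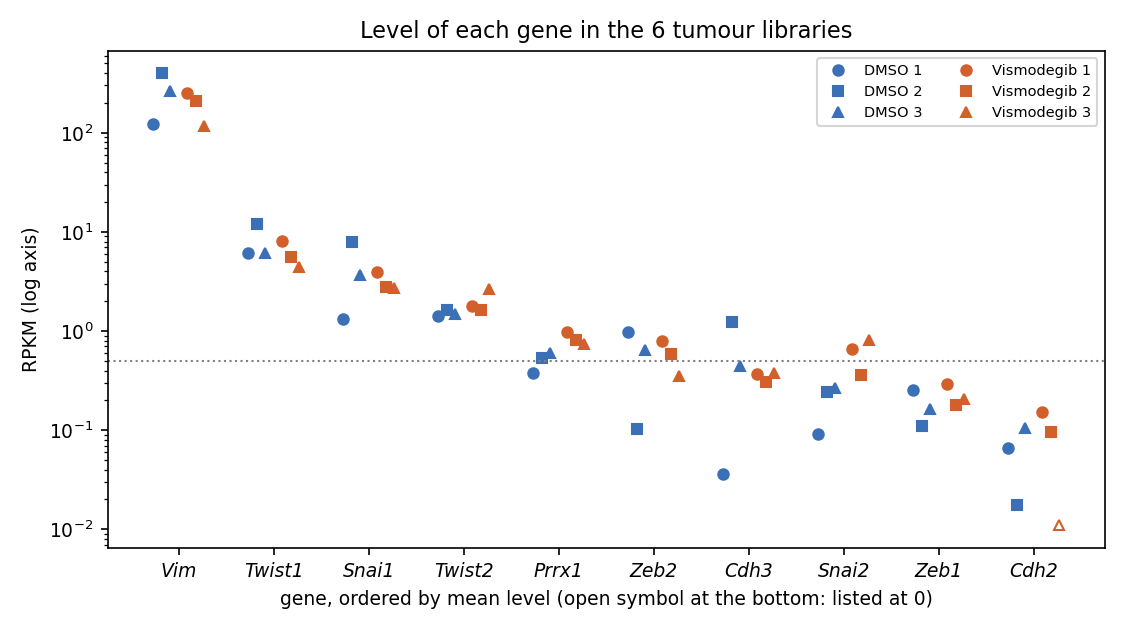
RPKM (log axis) of the 10 genes in each of the 6 libraries, blue for DMSO and orange for Vismodegib, with the replicate given by symbol and the filter of 0.5 RPKM dotted. Vim stands far above the others in every library, and Cdh2 is listed at 0 in Vismodegib replicate 3.

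Read numbers behind the low values were recovered from the steps between values, at 34800000 to 58000000 reads per library. Snai1, Snai2, Twist1 and Cdh3 each have 1 transcript in the GENCODE M21 annotation, and all 24 of their values were whole numbers of reads within 0.02 reads. Totals too high by a whole-number factor would not show in this check. GC-rich and short genes were relatively high in DMSO replicate 2, where the deviation from the gene mean had a correlation of 0.21 with GC content and -0.20 with log length across 11592 genes, which are not independent replicates. Over the 6 libraries these correlations ran from -0.35 in Vismodegib replicate 2 to 0.29 in Vismodegib replicate 3 for GC content, and between -0.20 and 0.27 for length, the latter in DMSO replicate 3. Epithelial markers of the labelled tissue were high in every library, with 5 luminal markers summing to 1295 to 2349 RPKM with DMSO and 1990 to 2117 RPKM with Vismodegib.

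The comparison of Vismodegib with DMSO asked whether blocking Smoothened came with a different level of this programme in the whole tumour. It was fitted with limma to log2(RPKM + 0.5) over all 11818 genes that averaged 0.5 RPKM or more. Of the 10 genes, 6 passed this filter: Snai1, Twist1, Twist2, Zeb2, Prrx1 and Vim. None of the 6 passed an adjusted p under 0.05, where 0% of all genes did, and 0 of the 6 had an unadjusted p under 0.05, where 266 genes (2.25%) did. Differences, Vismodegib minus DMSO on the log2 scale, were above 0 in 3 of the 6, against 58.4% of all genes, with a median of -0.041 against 0.055 over all genes tested. No member had all Vismodegib tumours below all DMSO tumours, where 0.745% of tested genes did. In Prrx1 and Twist2 all Vismodegib tumours lay above all DMSO tumours, a pattern found in 4.29% of tested genes. Snai2, below the filter, had the same pattern, found in 5.83% of genes with means of 0.05 to 0.5 RPKM. After removal of library-wise trends on GC content and length, the groups overlapped in Prrx1 and Twist2 but not in Snai2. Exact permutation tests of single genes, two-sided, cannot go below p = 0.1 with 3 against 3.

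Snai2, also called Slug, is a repressor active in neural crest, basal mammary cells and fibroblasts (ENSMUSG00000022676.7, chromosome 16, 14705852 to 14709385, plus strand). It was at 0.0925, 0.241 and 0.269 RPKM with DMSO replicates 1, 2 and 3, which rest on 7, 17 and 22 reads. In Vismodegib replicates 1, 2 and 3 it was at 0.654, 0.359 and 0.819 RPKM, from 55, 31 and 96 reads. The lowest treated tumour lay above the highest control, but their counting intervals overlapped: 95% exact Poisson limits were 0.169 to 0.407 RPKM for DMSO replicate 3 and 0.244 to 0.510 RPKM for Vismodegib replicate 2. These limits cover counting error only. The controls averaged 0.201 ± 0.0950 RPKM and the treated tumours 0.611 ± 0.233 RPKM (SD, n = 3 each), a ratio of 3.04. The log2 difference was 0.65, with an exact permutation p = 0.1. All 17 alternative settings gave a positive difference, from 0.38 with library weights to 1.24 with a pseudocount of 0.1. As the groups did not overlap, only a change of scaling or the removal of GC and length trends could have turned the sign. These gave 0.63 with median-ratio scaling, 0.59 with quantile scaling and 0.60 with the trends removed. When every gene was fitted with no filter, limma gave an adjusted p = 0.970 and a 95% interval from 0.13 to 1.17.

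Prrx1, which marks embryonic and fibroblast-lineage mesenchyme (ENSMUSG00000026586.16, chromosome 1, 163245119 to 163313710, minus strand), measured 0.381, 0.537 and 0.601 RPKM with DMSO. In Vismodegib it was at 0.968, 0.812 and 0.735 RPKM. The groups did not overlap, and the treated mean of 0.839 ± 0.119 RPKM was 1.66 times the control mean of 0.506 ± 0.113 RPKM (n = 3 each). By limma the difference on the log2 scale was 0.41 (SE 0.237), with a 95% interval from -0.12 to 0.95 and an adjusted p = 1. Leaving out single libraries gave 0.32 to 0.48. Other gene models on both strands overlap Prrx1, and the use of strand is not given in the sources used here.

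Twist2, a factor of dermal and other connective tissue lineages (ENSMUSG00000007805.4, chromosome 1, 91801461 to 91848028, plus strand), was steady in DMSO at 1.42, 1.62 and 1.48 RPKM. Vismodegib tumours were at 1.78, 1.63 and 2.68 RPKM. Only replicate 3 stood well apart, and replicate 2 exceeded the highest control by a small margin (1.630 against 1.619 RPKM). Limma put the difference at 0.31 (95% interval -0.27 to 0.90) with an adjusted p = 1, and without Vismodegib replicate 3 it was 0.14. An antisense model, Gm29100, overlaps the gene.

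**Figure D2:**
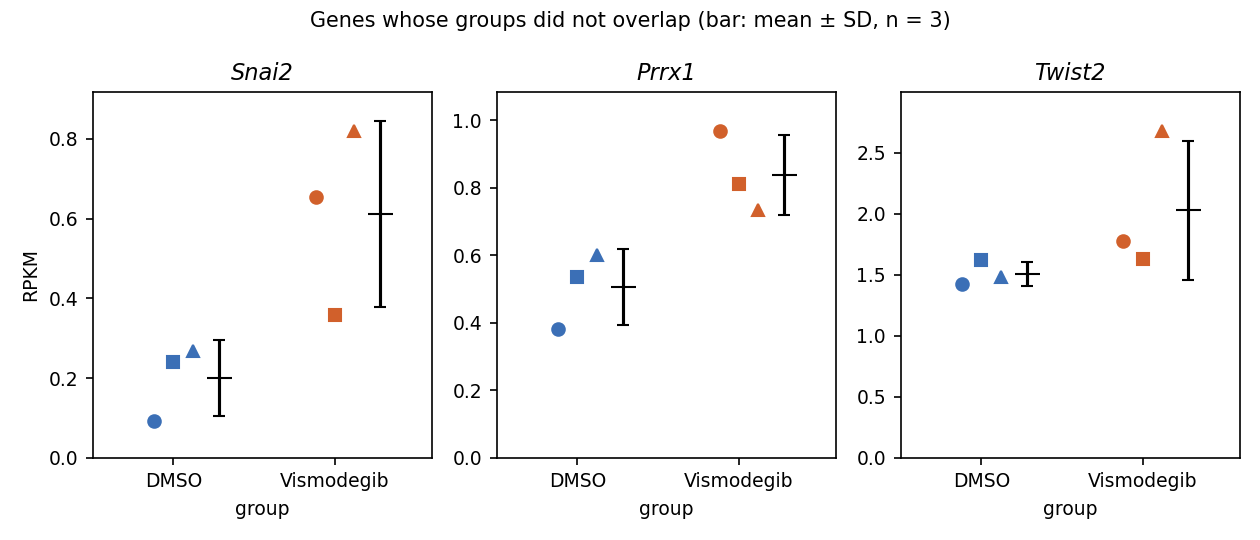
RPKM of Snai2, Prrx1 and Twist2 by group, 1 point per library (circle, square and triangle for replicates 1, 2 and 3) with the mean ± SD of 3 libraries beside them. All treated tumours lie above all controls in each panel, by the narrowest margin in Twist2.

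Markers of fibroblasts and pericytes were set beside these 3 genes. All 10 tested markers of 11 had differences above 0, where 58.4% of all tested genes did, with a median of 0.61. No marker was listed at 0 in any library. Their summed level ran from 122 to 172 RPKM with DMSO and from 144 to 302 RPKM with Vismodegib. The highest sums were 302 RPKM with Vismodegib replicate 3 and 231 RPKM with Vismodegib replicate 1, the libraries with the highest Snai2 and Twist2. The groups of sums overlapped, and Prrx1 had another order, with its lowest treated value in Vismodegib replicate 3. Lum, a collagen-binding proteoglycan, had a difference of 1.33, and Col1a2, a fibrillar collagen chain, of 1.02, neither past adjustment. The part of fibroblast content in the values of Snai2, Prrx1 and Twist2 was not tested. Basal epithelial markers (Krt5, Krt14, Krt15, Krt17 and Trp63), all 5 above 0 in difference and none at 0 in any library, summed to 71.9 to 156 RPKM with DMSO and 147 to 226 RPKM with Vismodegib. Their part was not tested either.

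Snai1, the founding repressor of E-cadherin (ENSMUSG00000042821.7, chromosome 2, 167538195 to 167542814, plus strand), was at 1.33, 7.98 and 3.71 RPKM with DMSO, from 81, 451 and 243 reads. In Vismodegib it was at 3.97, 2.80 and 2.73 RPKM, from 268, 194 and 257 reads. The controls held both the lowest and the highest tumour, and the treated tumours lay between them. The difference on the log2 scale was -0.15 (95% interval -1.29 to 0.98), with an adjusted p = 1 by limma. Its sign rested on DMSO replicate 2: without that library the difference was 0.39.

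Twist1 (ENSMUSG00000035799.6, chromosome 12, 33957671 to 33959829, plus strand) was at 6.13, 11.99 and 6.13 RPKM with DMSO, from 374, 680 and 404 reads. In Vismodegib it was at 8.13, 5.62 and 4.45 RPKM, from 551, 391 and 420 reads. Again DMSO replicate 2 was the highest library, and the other 5 lay between 4.45 and 8.13 RPKM. The log2 difference was -0.36 (95% interval -1.14 to 0.42), with an adjusted p = 1 by limma, and it was -0.053 without DMSO replicate 2.

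Vim was at 121, 398 and 263 RPKM with DMSO and at 253, 210 and 116 RPKM with Vismodegib. DMSO replicate 2 was highest, and DMSO replicate 1 and Vismodegib replicate 3 were lowest, so that the groups overlapped. The group means were 261 ± 138 and 193 ± 69.8 RPKM (n = 3 each). The log2 difference was -0.35 (95% interval -1.42 to 0.73), with an adjusted p = 1 by limma, and it turned to 0.039 without DMSO replicate 2.

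Cdh3 (ENSMUSG00000061048.8, chromosome 8, 106510891 to 106557297, plus strand), which lies 46053 bases from Cdh1, had the largest ratio of highest to lowest RPKM among the genes detected in every library. It was at 0.0365, 1.23 and 0.445 RPKM with DMSO, from 6, 188 and 79 reads, a range of 33.7 times within the control group that rests on the 6 reads of DMSO replicate 1. On the log2(RPKM + 0.5) scale its SD over the 6 libraries was 0.54, against 0.72 for Snai1 and 0.69 for Vim. The treated tumours were close together at 0.373, 0.310 and 0.378 RPKM, from 68, 58 and 96 reads. Its log2 difference was -0.17 (exact permutation p = 0.7), and 0.26 without DMSO replicate 2. The basal keratin Krt5 was also lowest in DMSO replicate 1, at 0.243 RPKM against 4.21 to 9.32 RPKM in the other 5 libraries.

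Snai1, Twist1, Vim and Cdh3 were thus all highest in DMSO replicate 2, where 29.8% of tested genes were highest. On the log2 scale they stood 1.15, 0.79, 0.94 and 0.94 above their own means there. After removal of library-wise trends on GC content and length, these deviations were 0.94, 0.57, 0.93 and 0.90. Of all pairs among the 10 genes that include Snai1, the closest profile was that of Cdh3, with a root mean square difference of 0.21 between log2 profiles, each centred on its own mean, over the 6 libraries. Among other genes of at least 1 RPKM, Snai1 was closest to Gipc1, a PDZ-domain adaptor, and to Ap1s2, a clathrin adaptor subunit (0.084 and 0.096). Twist1 was closest to the nucleoporin gene Nup35 and the tRNA splicing gene Tsen15 (0.068 and 0.094), and Vim to Gm12966 and Gps2 (0.051 and 0.092).

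**Figure D3:**
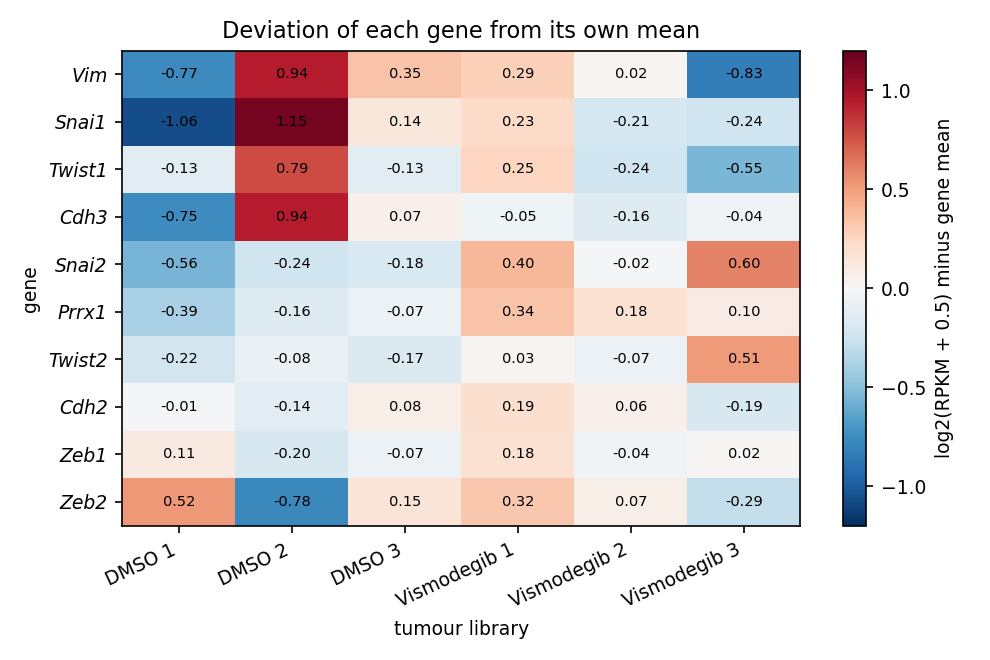
Deviation of log2(RPKM + 0.5) from the mean of each gene, for 10 genes (rows) and 6 libraries (columns), red above and blue below. Vim, Snai1, Twist1 and Cdh3 are reddest in DMSO replicate 2, where Zeb2 is bluest at -0.78.

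The ZEB genes were low and followed another order. Zeb2 (ENSMUSG00000026872.17, chromosome 2, 44983632 to 45117395, minus strand), also expressed by macrophages and other myeloid cells, was at 0.985, 0.104 and 0.650 RPKM with DMSO. In Vismodegib it was at 0.793, 0.589 and 0.348 RPKM. DMSO replicate 2, the highest library for Snai1, was the lowest for Zeb2, and the difference in root mean square between these 2 profiles was the largest of all 45 pairs at 1.03. The Zeb2 deviation there went from -0.78 to -0.32 once trends on GC content and length were removed. The longest Zeb2 transcript has 9124 bases at 40.6% GC, and that of Snai1 1621 bases at 59.8% GC. The group difference was 0.071, with a 95% interval of -0.75 to 0.90 and an adjusted p = 1 by limma. It turned to -0.30 without DMSO replicate 2, to -0.072 without Vismodegib replicate 1 and to -0.024 with quantile scaling. The 8 macrophage markers, none at 0 in any library, summed to 1215 to 2150 RPKM with DMSO and 795 to 2715 RPKM with Vismodegib, with the lowest sum in Vismodegib replicate 2 and the highest in Vismodegib replicate 3. The macrophage marker Adgre1 was at 2.43, 1.21 and 1.57 RPKM with DMSO and at 3.63, 1.49 and 1.90 RPKM with Vismodegib, lowest in DMSO replicate 2 as Zeb2 was. Other macrophage markers had another order. Cd68 and C1qb were highest in DMSO replicate 2, at 20.9 and 211 RPKM, and Csf1r was lowest in Vismodegib replicate 2, at 8.09 RPKM. The part of macrophage content in the Zeb2 values was not tested.

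The closest profiles to Zeb2 were those of Psmd11, a proteasome regulatory subunit, and Cd200r4, a receptor of myeloid cells, at root mean square differences of 0.055 and 0.064. An antisense gene in the table, Zeb2os, overlaps Zeb2. Zeb1 (ENSMUSG00000024238.15, chromosome 18, 5591860 to 5775467, plus strand) was at 0.252, 0.109 and 0.164 RPKM with DMSO and at 0.292, 0.178 and 0.205 RPKM with Vismodegib. Its groups overlapped, and the log2 difference of 0.11 had an exact permutation p = 0.4. Like Zeb2, Zeb1 was lowest in DMSO replicate 2, as were 23.8% of tested genes. Zeb1 and Zeb2 both had their 2 highest values in DMSO replicate 1 and Vismodegib replicate 1. Summed levels of 6 endothelial markers, none at 0 in any library, were also highest there, at 177 and 112 RPKM, against 29.7 and 32.7 RPKM in the other DMSO libraries and 46.5 and 81.6 RPKM in the other Vismodegib libraries. Cldn5 alone held 150 and 79.5 RPKM of these 2 highest sums. Pecam1, Cdh5 and Emcn were also highest in these libraries, but with Vismodegib replicate 1 above DMSO replicate 1 (Pecam1 at 15.5 and 12.9 RPKM). The part of endothelial content in the ZEB values was not tested.

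Cdh2 (ENSMUSG00000024304.14, chromosome 18, 16588877 to 16809246, minus strand) lay near the floor of detection. It was at 0.0662, 0.0178 and 0.104 RPKM with DMSO and at 0.152, 0.0958 and 0 RPKM with Vismodegib. For its longest transcript, 3 reads correspond to 0.0107 to 0.0178 RPKM, and DMSO replicate 2 rested on about 3.0 reads. No difference was detectable at this depth (log2 difference 0.044, exact permutation p = 0.8), and its sign changed to -0.014 without DMSO replicate 2 and to -0.041 without Vismodegib replicate 1. E-cadherin was abundant in the same tumours, with Cdh1 at 40.6, 43.3 and 80.1 RPKM with DMSO and 63.5, 68.5 and 49.4 RPKM with Vismodegib (log2 difference 0.20, adjusted p = 1 by limma). Per length, Cdh1 exceeded Cdh2 by 418 to 769 times in the 4 libraries with more than 3 reads of Cdh2. In Vismodegib replicate 3, Cdh1 was at least 4620-fold higher than Cdh2, taking 3 reads in that library as the floor. Cdh1 also exceeded Cdh3 in every library, by 35.2 to 1111 times. Vimentin and E-cadherin RNA were thus both high in every library, with Vim at 2.36 to 9.18 times Cdh1. Which cells of the whole tumour held either RNA was not tested.

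Ratios between relatives within a library, taken here with no pseudocount, do not depend on a single scaling factor per library. Library-wise trends on GC content can still act on them: the longest Snai1 transcript has 59.8% GC and that of Snai2 42.6%. The part of such trends in the ratios was not tested. Snai1 exceeded Snai2 by 14.4, 33.1 and 13.8 times in DMSO and by 6.08, 7.80 and 3.34 times in Vismodegib. The groups did not overlap: the log2 ratio was 4.23 ± 0.71 in DMSO and 2.44 ± 0.63 in Vismodegib (mean ± SD, n = 3 each), a difference of -1.79 (exact permutation p = 0.1). Leaving out single libraries gave -2.06 to -1.38, and the value nearest to 0 came without DMSO replicate 2. With 0.5 added to both RPKM values, an alternative chosen after seeing the data, the difference was -0.80 and the groups overlapped (exact permutation p = 0.3). Twist1 exceeded Twist2 by 4.31, 7.40 and 4.15 times in DMSO and by 4.57, 3.45 and 1.66 times in Vismodegib, with overlap between the groups (exact permutation p = 0.3). The ratio of Zeb2 to Zeb1 was lowest at 0.951 in DMSO replicate 2 and highest at 3.97 in DMSO replicate 3, and the treated tumours lay within that range.

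**Figure D4:**
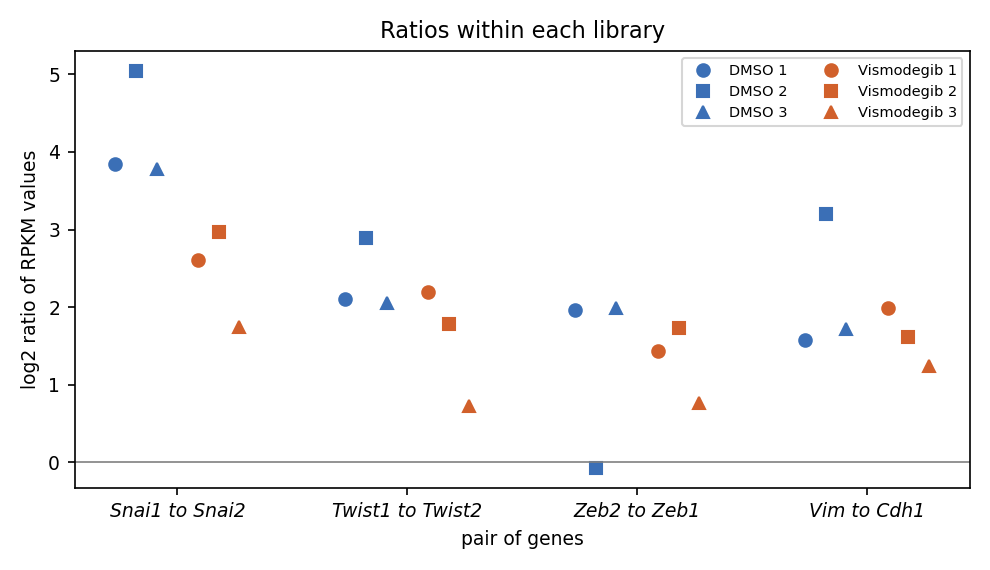
Log2 ratio of RPKM values within each library for 4 pairs of genes, blue for DMSO and orange for Vismodegib. The Snai1 to Snai2 ratio lies between 3.78 and 5.05 in DMSO and between 1.74 and 2.96 in Vismodegib, while the other 3 pairs overlap between the groups.

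Relatives of the 10 genes were mixed. Of 9 tested relatives, 6 had differences above 0, where 58.4% of all tested genes did, with a median of 0.20, and none passed adjustment. Cdh11, a cadherin of mesenchymal cells, was at 0.651, 0.516 and 0.661 RPKM with DMSO and at 1.24, 0.867 and 1.97 RPKM with Vismodegib, without overlap and with Vismodegib replicate 3 highest, as in Snai2. Its log2 difference was 0.71 (adjusted p = 1 by limma). Des, which encodes the muscle intermediate filament desmin, had a difference of 1.46. The 6 skeletal muscle markers, none at 0 in any library, summed to 8.82 to 124 RPKM with DMSO and 65.7 to 127 RPKM with Vismodegib. Des had the same order as these sums within DMSO. Within Vismodegib it was highest in replicate 3, at 23.5 RPKM, where the muscle sum was lowest. The part of muscle content in the Des value was not tested. The remaining named relatives, the endothelial cadherin Cdh5 and the progenitor filament gene Nes, had differences of 0.39 and -0.29.

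Among 20 other genes known to rise in the transition, 18 had differences above 0 and 2 below, with a median of 0.32 and none past adjustment. Of all tested genes, 58.4% had differences above 0. Spp1, the secreted phosphoprotein osteopontin, was at 805, 614 and 615 RPKM with DMSO and at 2162, 1316 and 1033 RPKM with Vismodegib, without overlap. It differed by 1.09 on the log2 scale (95% interval 0.32 to 1.86), with an adjusted p = 1 by limma. Loxl2, a matrix-crosslinking oxidase, also did not overlap (4.52 ± 0.595 against 6.45 ± 1.14 RPKM, n = 3 each). All Vismodegib libraries lay above all DMSO libraries in 4.29% of tested genes. The matrix gene Sparc and the oxidase gene Lox overlapped and had differences of 0.73 and 0.66. Many of these genes are also expressed by fibroblasts, and the part of fibroblast content in their values was not tested.

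Of 17 tested signals and factors upstream of the transition, 12 had differences above 0, where 58.4% of all tested genes did, with a median of 0.19. Smad3, which carries TGF-beta signals to the nucleus, was at 12.5, 7.71 and 14.3 RPKM with DMSO and at 14.6, 21.1 and 15.1 RPKM with Vismodegib, the groups apart by a small gap. Smad7, an inhibitor of the same pathway, had a difference of -0.52, and the NF-kappa-B genes Nfkb1 and Rela had -0.63 and -0.37. All of these overlapped between the groups except Smad3. Of 17 corepressor and protein turnover genes, 10 were above 0, with a median of 0.12. Ctbp1, a corepressor recruited by ZEB factors, differed by 0.32, the histone deacetylase Hdac2 by 0.30, the Polycomb subunit Suz12 by 0.32 and Fbxl14, a ubiquitin ligase adaptor for Snai1, by 0.24. None of the genes in either list passed adjustment.

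On the epithelial side, 18 of 21 tested targets and opponents of the factors had differences above 0, where 58.4% of all tested genes did. Their median was 0.37, and none passed adjustment. Cldn4 and Epcam differed by 0.90 and 0.91, Rab25 by 0.58 and St14 by 0.37. Of the 21 genes, 2 had all Vismodegib libraries above all DMSO libraries, Cldn4 and St14, where 4.29% of all tested genes did. Epcam and Rab25 overlapped between the groups. Of the 6 cadherin-catenin genes, 4 had differences above 0, with a median of 0.27. Jup, the junctional catenin plakoglobin, was at 12.8, 14.4 and 19.1 RPKM with DMSO and at 27.9, 21.4 and 19.9 RPKM with Vismodegib, without overlap (log2 difference 0.57, adjusted p = 1 by limma). Ctnnd1, Ctnnb1 and Afdn, with differences of 0.41, 0.50 and -0.28, overlapped between the groups.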

How the data were processed

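The authors deposited RPKM values for 23381 gene symbols in 6 libraries, with no counts. Per the submitters' processing notes, the mm10 build was used with Partek, SAMtools, HISAT2, STAR, cutadapt and bcl2fastq 2.17. The role of each tool, with annotation and strand setting, is not given in the sources used here. Two-sided tests were run on log2(RPKM + 0.5), a scale that understates changes of low genes, by limma 3.58.1 under R 4.3.3, using a trended eBayes fit with no covariate and Benjamini-Hochberg adjustment across 11818 genes. Members and lists were chosen with earlier results of these data known. Named genes were the 10 members, Cdh1, up to 4 genes of smallest p per list, and the 2 nearest profiles of described members. Krt5, Lum, Col1a2, Adgre1, Cd68, C1qb, Csf1r, Cldn5, Pecam1 and Emcn, from the marker lists, were added after their values were seen. Of the lists, 14 of 16 relatives and 17 of 18 corepressor and turnover genes were in the table. Steps of 6992 single-transcript genes gave the library totals, with 83.6% to 85.2% of values up to 20 reads whole within 0.02 reads; whether reads or pairs were counted is not stated. Gene positions, lengths and GC content came from GENCODE M21. The fit was run on simulated independent genes with a common SD and added folds. Such data cannot show how library-wise trends or outlying libraries affect it. Alternatives covered pseudocounts, filters, scalings, variance models, library weights, a replicate block and each library left out; removal of GC and length trends and a pseudocount in the Snai1 to Snai2 ratio were added after the data were seen. A planned protein comparison was not run, as no protein sequences were used here.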

Additional observations from a re-analysis of the deposited data

How the results depend on the processing

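No member that was tested passed the threshold under any of the 17 alternatives, with 4 to 10 members tested in each; Snai2, Zeb1 and Cdh2 were tested only with no filter. Across all genes, library weights gave 420 calls (with weights of 7.28 for DMSO replicate 3 and 0.32 for the other DMSO libraries, from an estimate that stopped before its convergence tolerance), and leaving out single libraries gave 0 to 19, the 19 without DMSO replicate 1. The median difference of the tested members, -0.041, ran from -0.55 without DMSO replicate 1 to 0.20 without DMSO replicate 2, and was 0.056 with a pseudocount of 0.1 and 0.057 with no filter. Snai2 (0.38 to 1.24), Twist1, Twist2, Zeb1 and Prrx1 kept their direction under all 17. In Snai2, Twist2 and Prrx1 the groups did not overlap, so only the scalings and the removal of GC and length trends could have turned it. The Snai1 to Snai2 log2 ratio difference went from -1.79 to -0.80 with a pseudocount of 0.5 in the ratio, chosen after seeing the data. Leaving out single libraries gave -0.72 to 0.39 for Snai1, -0.82 to 0.039 for Vim, -0.59 to 0.26 for Cdh3, -0.30 to 0.35 for Zeb2 and -0.041 to 0.15 for Cdh2. Zeb2 was also at -0.024 with quantile scaling and -0.020 with library weights. Same-numbered libraries did not deviate together from their group means (correlations of 0.003, 0.038 and -0.305 across genes). With 3 libraries per group, whose deviations sum to 0 in each gene, these values cannot settle whether the numbers pair the samples. With the replicate block, 1 gene was called (Fam25c, named after its values were seen), and no DMSO library correlated best with the Vismodegib library of its own number except replicate 2. The cause of these changes was not tested. Depth limits Cdh2, Snai2 and Cdh3, where the lowest libraries hold few reads.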
